A study of Phyllostachys edulis with 12 samples.

Results

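The first 0.5 h of freezing-range cold was examined by RNA sequencing in whole seedlings of Phyllostachys edulis, the moso bamboo, which is a tall woody grass. The comparison sets 3 libraries from seedlings placed for 0.5 h in a freezing chamber set to -2 °C against 3 control libraries from seedlings given no cold. It uses 6 of the 12 samples of the series, assigned to their groups by their labels. All seedlings were 3 weeks old, greenhouse-grown and listed at the stage of 3 leaves. The chamber had the light and day length of the controls. The labels do not say whether a library holds 1 plant or a pool. The other samples were held at -2 °C for 1 h or 24 h, and their libraries help to estimate the spread. The table lists 47091 genes, of which 39640 were counted highly enough to be tested.

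In plants, cold stiffens membranes and lets calcium into the cell, and calcium-binding proteins and kinases pass the signal on. In Arabidopsis and rice, transcription factors of the CBF/DREB1 family are among the first genes to be switched on, and the protective proteins and sugars whose genes they control follow later. The deposited table does not pair its identifiers with names, so none of these families could be looked up, the seedling identity of the samples could not be checked against marker genes, and genes are given here by identifier with no role.

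The 6 libraries were of like depth, with 29304206 to 33873890 counts and 40840 to 41340 genes with at least 1 count. Across the genes tested, the Pearson correlation of log2 CPM (CPM are counts scaled to a common library size, here with TMM factors) was 0.948 to 0.952 within the 0.5 h group, 0.949 to 0.950 within the controls and 0.943 to 0.952 between the groups. The range between groups thus covered the range within them. The number of genes that lay at least 4-fold apart in a pair of libraries was 1452 to 1682 within the 0.5 h group, 1554 to 1596 within the controls and 1416 to 1827 between them. No pair agreed within sampling noise, with a chi-square per degree of freedom of at least 20.0, so each library was counted as 1 sample.

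After 0.5 h, 3 genes rose and 1 fell by the test across all genes. PH01001566G0280 showed the largest rise. It had 1.57, 1.66 and 2.35 CPM in control replicates 1 to 3 and 16.1, 19.8 and 35.0 CPM in 0.5 h replicates 1 to 3. The groups did not overlap, and the lowest cold library lay 6.84-fold above the highest control. The cold libraries themselves spanned 2.18-fold, with replicate 3 the highest. Its log2 fold change was 3.67 (SE 0.33, 95% interval 2.94 to 4.40, edgeR adjusted p = 0.0037), from 1.86 ± 0.425 CPM to 23.6 ± 10 CPM (SD, n = 3 each). In bulk seedlings, a change in the RNA per cell and a change in the number of cells that hold it cannot be told apart.

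PH01002148G0300 rose less but more evenly. It had 3.53, 3.23 and 3.82 CPM in the controls and 15.4, 13.9 and 22.2 CPM at 0.5 h, again without overlap and again highest in replicate 3. Its log2 fold change was 2.28 (SE 0.19, 95% interval 1.87 to 2.70, edgeR adjusted p = 0.0022). The control libraries differed by 1.18-fold at most and the cold libraries by 1.60-fold. The other gene that rose is listed as newGene, the authors' mark for an added gene model as far as the name shows. It went from 10.4, 11.4 and 9.80 CPM to 23.0, 25.7 and 19.8 CPM, with replicate 3 the lowest here. Its log2 fold change was 1.11 (SE 0.13, 95% interval 0.82 to 1.40, edgeR adjusted p = 0.04).

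PH01221966G0010 was the one gene called lower. It had 121, 99 and 76 counts in the controls and 5, 4 and 3 counts at 0.5 h, or 3.59, 2.88 and 2.55 CPM against 0.168, 0.120 and 0.0942 CPM. Every control lay at least 15.2-fold above every cold library. The log2 fold change was -4.53 (SE 0.35, 95% interval -5.30 to -3.75, edgeR adjusted p = 0.0022). Its listed length is 389 bases, the shortest of the 4, and its level was back at 3.00, 4.32 and 2.88 CPM in the 1 h libraries. In the 24 h libraries it was low again, at 0.149 and 0.2 CPM. Its log2 fold change at 24 h against the controls was -4.07 (SE 0.41, edgeR adjusted p = 2e-04).

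PH01001465G0050 takes a free place among the named genes by a rule on a fit of the 6 libraries alone, with weaker support. It was not called in the fit of all libraries (log2 fold change -2.21, SE 0.61, edgeR adjusted p = 0.6) or by DESeq2 (adjusted p = 0.18). In the fit of 6 it was called (SE 0.19, edgeR adjusted p = 0.023), as were other lower genes with the same adjusted p. The other genes called lower in that fit only had edgeR adjusted p of 0.2, 0.41 and 0.52 with all libraries. The 0.5 h libraries of PH01001465G0050 had 7.60, 6.71 and 8.64 CPM against 34.9, 43.3 and 27.6 CPM in the controls. The 1 h libraries were split, at 35.4, 5.16 and 5.86 CPM, so 1 of them lay in the range of the controls and the others lay below it. That split enters the spread in the fit of all libraries and not in the fit of 6.

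**Figure D1:**
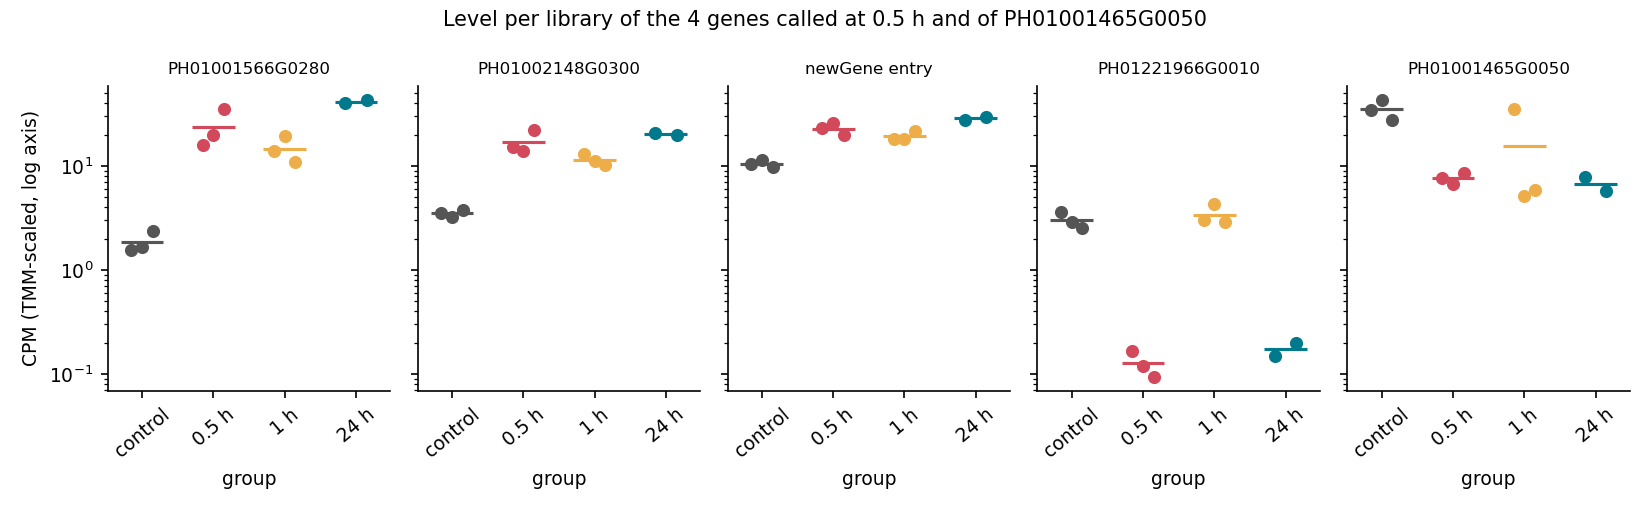
CPM on a log axis in each library (points) with the group mean (line), for the 4 genes called at 0.5 h and for PH01001465G0050. The 3 genes that rose have no overlap between control and 0.5 h, and PH01001465G0050 is split at 1 h. PH01221966G0010 lies at 0.0942 to 0.168 CPM at 0.5 h, at 2.88 to 4.32 CPM at 1 h and at 0.149 and 0.2 CPM at 24 h.

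At an adjusted p under 0.05, the quasi-likelihood test of edgeR thus made 4 calls in 39640 genes, which is 0.0101% of those tested: 3 higher (0.00757%) and 1 lower (0.00252%). At an unadjusted p under 0.05 there were 1838 genes (4.64%), 1093 higher (2.76%) and 745 lower (1.88%). The count moved with the tool and with single libraries: it was 24 without 0.5 h replicate 2, 8 without 0.5 h replicate 3, 10 with a robust prior, 9 in the fit of the 6 libraries alone, 8 with no filter on low counts, 216 with DESeq2 and 1 with limma-voom. PH01002148G0300 kept an adjusted p of at most 0.032 in every alternative run, PH01001566G0280 lost its call with limma-voom (adjusted p = 0.089) and without control replicate 2 (edgeR adjusted p = 0.05), PH01221966G0010 lost it with limma-voom (adjusted p = 0.17), and the newGene entry lost it in 9 of 17 alternatives.

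The fit of the 6 libraries alone called 9 genes (0.0246% of 36631), 4 higher (0.0109%) and 5 lower (0.0136%), of which 3 were also called with all libraries. The other 6, PH01001465G0050 among them, had wider values at 1 h or 24 h than in the groups compared. One of them had no count in any control and 79, 119 and 122 counts at 0.5 h. It then had 0, 0 and 109 counts at 1 h, and 58 and 0 at 24 h. Another did the reverse, with 111, 104 and 82 counts in the controls, none in the 0.5 h libraries, 135, 58 and 112 at 1 h and 34 and 0 at 24 h. A gene at 431, 374 and 325 counts in the controls had 44, 16 and 17 at 0.5 h (log2 fold change in this fit -3.80, edgeR adjusted p = 0.048, against 0.52 with all libraries), and had 8, 531 and 333 counts at 1 h. These genes were picked out after their values were seen.

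For most genes the data set a limit on how large a change could have been. The 95% interval of the log2 fold change, taken gene by gene with no adjustment, lay wholly within 2-fold either way for 25497 of the 39640 genes tested (64.3%). The share followed the level in the controls. It was 97.4% of 1479 genes at 100 CPM or more, 95.6% of 15019 genes from 10 to 100 CPM and 65.1% of 14721 genes from 1 to 10 CPM. Below 1 CPM it was 1.32% of 8421 genes, where the median standard error was 0.79 against 0.13 at 100 CPM or more. A 2-fold change in a gene below 1 CPM was thus in general not detectable at this depth and number of libraries. Over all genes tested the median log2 fold change was -0.003.

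**Figure D2:**
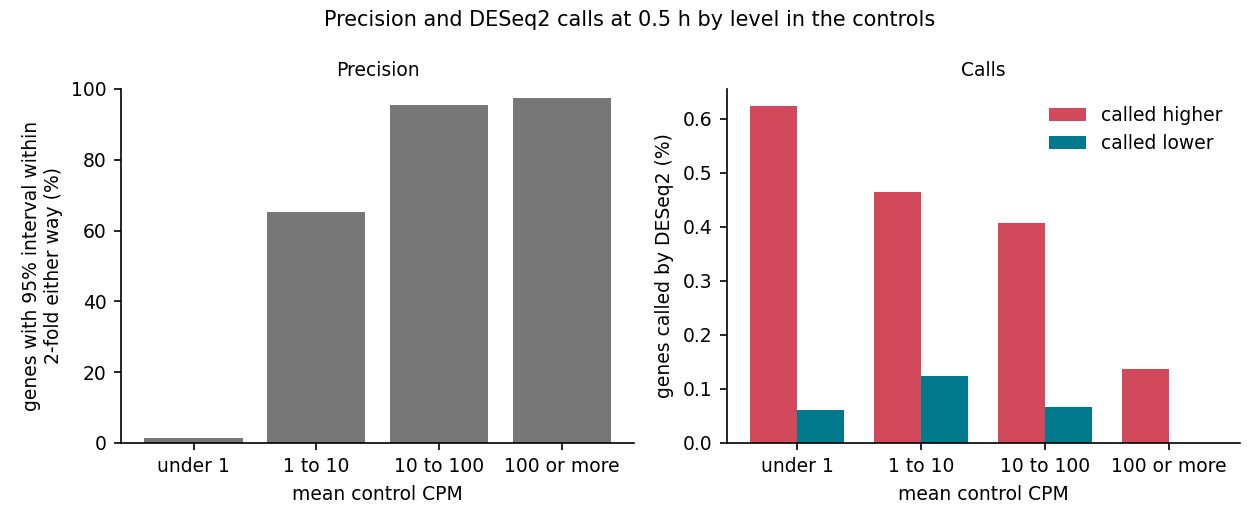
Left, the percentage of genes tested whose 95% interval of the log2 fold change lies within 2-fold either way, and right, the percentage of genes called higher or lower by DESeq2, both by mean CPM in the controls. The first rises from 1.32% below 1 CPM to 97.4% at 100 CPM or more, while calls of higher genes go from 0.624% to 0.136%. The classes are cut on the controls, which also enter the fold, so rises are favoured in the lowest class.

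DESeq2 gave a wider list on the same counts, 183 genes higher (0.464% of 39474) and 33 lower (0.0836%), with all 4 edgeR calls among them. In simulated counts a far larger part of its calls fell on unchanged genes than its threshold aims at, which was not so for edgeR. The spread put into those counts was estimated with a common mean for all groups, so differences between times entered it as spread. It need not match that between these libraries, so the simulation does not rank the tools on these data. Since edgeR did not call most of the list, it is used below to describe, and a single gene on it is not a call. Of the 183, 182 had an unadjusted edgeR p under 0.05, and the median edgeR adjusted p was 0.31. Both tools used the same libraries.

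The genes on the higher list were mostly of moderate level and moderate change. Their median was 4.47 CPM in the controls (quartiles 0.671 and 15.3) and 13.2 CPM at 0.5 h, against 6.63 and 6.64 CPM for all genes tested. These CPM values are counts per gene and not levels per length. By level in the controls, 52 of the 183 were below 1 CPM, 68 from 1 to 10, 61 from 10 to 100 and 2 at 100 or more, which is 0.624%, 0.464%, 0.407% and 0.136% of the genes in those classes. The classes are cut on the control mean, which also enters the fold. A gene low in the controls could also pass the filter through a cold group, so rises are favoured in the lowest class. There, whatever their p, 1127 genes tested were more than 2-fold higher and 882 more than 2-fold lower. The median log2 fold change went down with the level, from 4.06 below 1 CPM to 1.43, 0.86 and 0.39. The choice of genes sets this order at least in part, since with the larger standard errors at low level only large folds pass a test. Where a gene had no count in a group, its fold was set to a lower bound from a floor of 3 counts over that group's libraries. Among the 167 with counts in both groups, 52 lay under 2-fold, 68 between 2- and 4-fold, 23 between 4- and 8-fold and 24 at 8-fold or more. The other 16 had no count in any control and reached 0.278 to 9.82 CPM at 0.5 h. Of all 39640 genes tested, 225 had no count in any control, and such genes passed the filter only through cold libraries. Together the 183 took 0.206% ± 0.0142 of the counts in the controls and 0.413% ± 0.0551 at 0.5 h (SD, n = 3 each), a description of genes chosen for being higher.

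The highest and the steepest of these genes show the range. The one with the most counts in the controls had 122, 113 and 128 CPM there and 159, 144 and 177 CPM at 0.5 h, a log2 fold change of 0.40 (SE 0.11, DESeq2 adjusted p = 0.04, edgeR adjusted p = 0.55). The steepest among those with at least 1 CPM in the controls, no overlap and no edgeR call is a newGene entry, at 3.41, 3.4 and 6.88 CPM in the controls and 131, 38.7 and 14.1 CPM at 0.5 h. Its cold libraries thus differed far more than its controls, and its log2 fold change of 3.75 had a DESeq2 adjusted p of 5e-04 and an edgeR adjusted p of 0.25. Both were chosen after their values were seen.

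**Figure D3:**
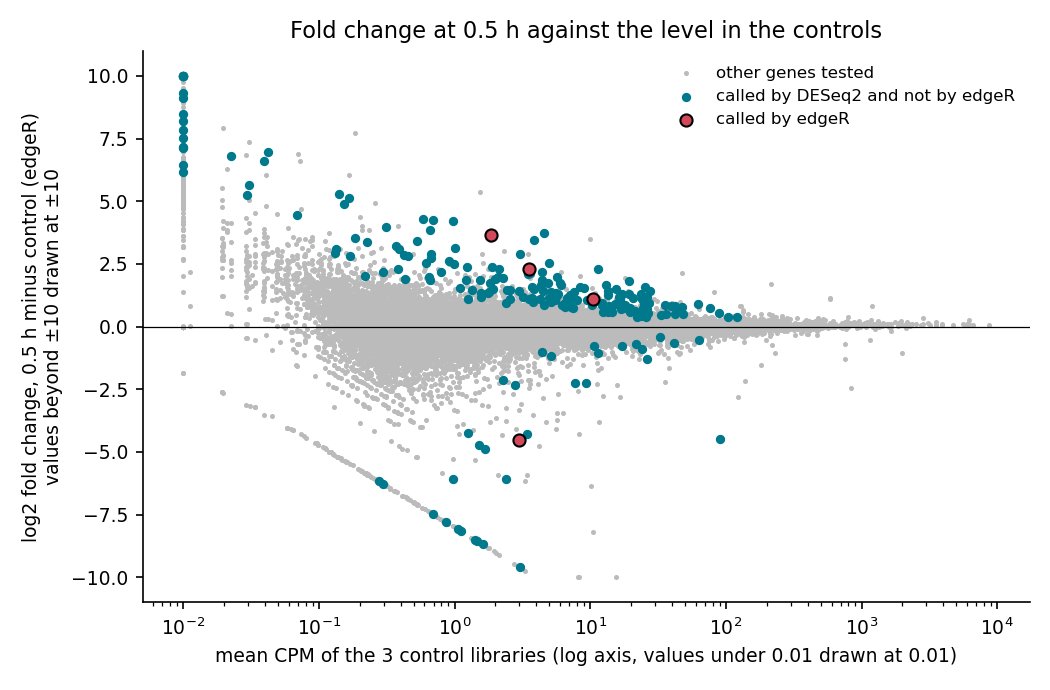
The log2 fold change at 0.5 h (edgeR, y axis) against the mean CPM of the 3 controls (x axis, log scale), 1 point per gene tested. The 4 edgeR calls have 1.86 to 10.5 CPM in the controls, and the DESeq2 calls above 0 outnumber those below it, 183 to 33.

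On the higher list the 3 cold libraries mostly shared a direction, which the choice of the genes largely fixed, and they differed in size. All 3 lay above the highest control in 173 of the 183 genes (94.5%), against 1993 of all genes tested (5.03%), and the genes were chosen on this contrast. All 3 were at least 2-fold above the control mean in 41 genes, some but not all in 105 and none in 37, on the scale log2(CPM + 0.5). Over all genes tested the same split was 63, 1161 and 38416. The median log2 ratio to the control mean was 1.02 in replicate 1, 0.84 in replicate 2 and 1.40 in replicate 3. Replicate 3 was the highest of the cold libraries in 123 of the 183 genes, and replicate 2 the lowest in 106. Over all genes tested, replicate 3 was the highest in 14104 of 39640 and replicate 2 the lowest in 12951. The cold libraries spanned at least 4-fold in 41 of the 183 genes (22.4%) and the controls in 5 (2.73%), against 7.19% of all genes tested in either group. These genes were chosen for controls below the 0.5 h libraries, 52 of them under 1 CPM and 16 of those with no count. A range near 0 is narrow by construction, so this gap cannot by itself be read as a measure of agreement. How much of it comes from such genes was not tested. Their median SD of log2 CPM was 0.46 at 0.5 h and 0.29 in the controls, against 0.23 and 0.24 for all genes tested, on a scale that also narrows low values.

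The genes on the lower list were fewer, and their values were less graded. Of the 33, 10 had no count in any 0.5 h library and 0.275 to 3.02 CPM in the controls. Of all 39640 genes tested, 204 had no count in any 0.5 h library, and such genes passed the filter only through other groups. With bounds for the 10, the median log2 fold change of the 33 was -3.23, and it was -2.12 over the 23 with counts in both groups. By level in the controls, 5 lay below 1 CPM, 18 from 1 to 10 and 10 from 10 to 100. The cold libraries lay below the lowest control in 25 of the 33 (75.8%), against 1814 of all genes tested (4.58%), and these genes too were chosen on this contrast. The controls of these genes spanned at least 4-fold in 11 (33.3%) and the 0.5 h libraries in 1 (3.03%), and many of the latter values were at or near 0. Entries listed as newGene made up 39.4% of the lower list, 21.3% of the higher list and 31.2% of the genes tested. The median log2 ratio was -1.59, -1.52 and -1.46 in 0.5 h replicates 1 to 3. The lower gene with the most counts in the controls had 96.5, 115 and 60 CPM there and 1.92, 2.23 and 7.98 CPM at 0.5 h (log2 fold change -4.48, DESeq2 adjusted p = 0.00058, edgeR adjusted p = 0.21). This gene too was chosen with its values known. It had 8.55, 1.99 and 2.37 CPM at 1 h, and 82.3 and 9.80 CPM at 24 h.

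**Figure D4:**
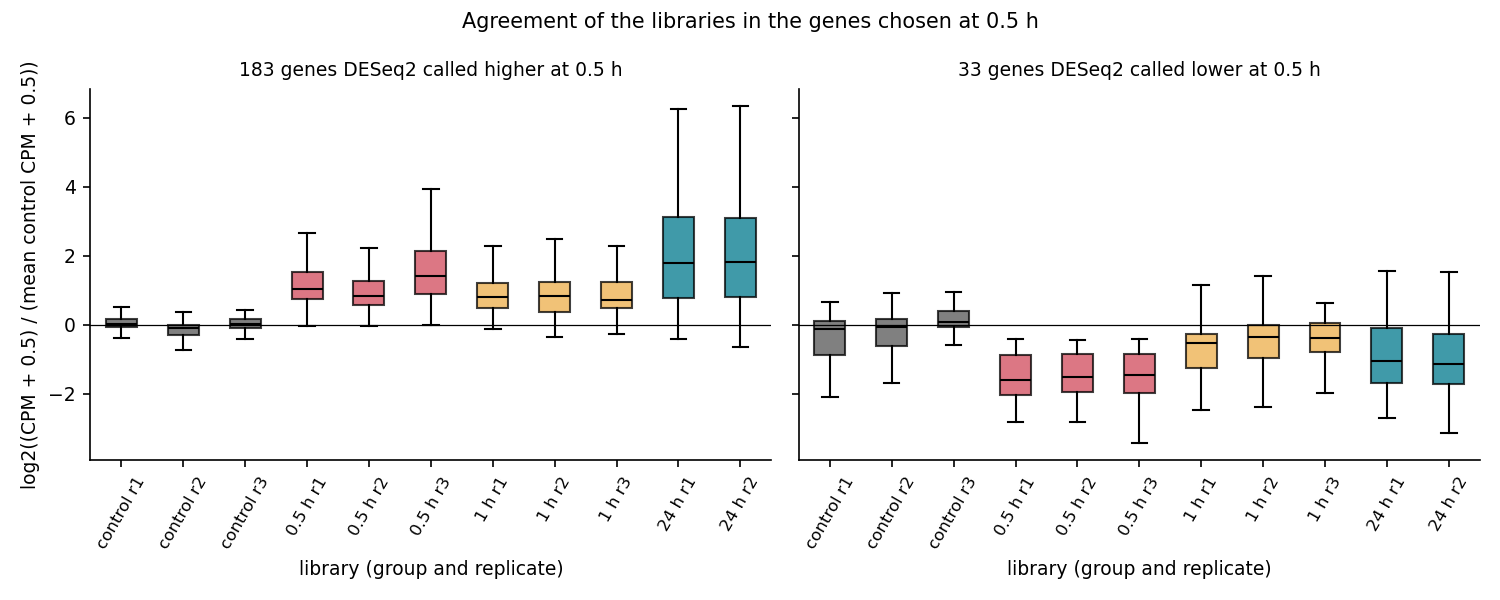
Log2 ratio of each library to the control mean, on (CPM + 0.5), for the 183 genes DESeq2 called higher and the 33 it called lower at 0.5 h. Boxes hold the middle of the genes with the median as a line, and whiskers reach to the last gene within 1.5 times the box. Medians of the higher list are 0.84 to 1.40 at 0.5 h, 0.73 to 0.82 at 1 h and 1.79 to 1.82 at 24 h.

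A count without a model also held more higher than lower genes, by a margin that depended on single libraries. Among 31260 genes with a mean of at least 1 CPM over the 6 libraries, 204 (0.653%) had all 3 cold libraries above all 3 controls and at least a 2-fold ratio of means, and 74 (0.237%) had the reverse. Of these, 65 of the 204 had a control mean under 1 CPM and 33 of the 74 a 0.5 h mean under 1 CPM, so each passed the minimum only through the group where it was high. The rest were 139 higher and 41 lower. With such genes kept in, the counts at 4-fold or more were 58 (0.186%) and 24 (0.0768%), and at 8-fold or more 29 (0.0928%) and 12 (0.0384%). With no limit on the fold they were 1560 (4.99%) and 1364 (4.36%). Those last shares are near what a random order of the 6 libraries would give in each direction. The same rule gave 213 (0.679%) higher and 112 (0.357%) lower at 1 h, with the same controls. Of the 204, DESeq2 called 106, which is 52.0% of them and 57.9% of its own 183. Of the 74 it called 11, or 14.9% of them and 33.3% of its 33. No gene went from under 1 CPM in every control to 5 CPM or more in every 0.5 h library, and none did the reverse. Leaving out any 1 library raised the count of 278 genes to 426 to 515, since fewer libraries overlap less. The split was 239 higher and 187 lower without 0.5 h replicate 3, 269 and 188 without replicate 1, and 315 and 179 without replicate 2. It was 355 and 160 without control replicate 1, 299 and 141 without control replicate 2, and 333 and 141 without control replicate 3.

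The later libraries show where these genes stood after more cold. PH01001566G0280 had 13.9, 19.3 and 10.9 CPM at 1 h and 40.3 and 42.7 CPM at 24 h. PH01002148G0300 had 13.0, 11.3 and 10.2 CPM at 1 h and 20.9 and 19.7 CPM at 24 h. In both genes every 1 h library lay above every control. Neither differed between 1 h and 0.5 h by the test of that difference (log2 differences -0.68, SE 0.29, and -0.58, SE 0.18, edgeR adjusted p = 0.7 and 0.68), nor between 24 h and 0.5 h (0.82, SE 0.31, and 0.24, SE 0.19, edgeR adjusted p = 0.17 and 0.53). The newGene entry had 18.0, 18.1 and 21.6 CPM at 1 h and 27.9 and 29.7 CPM at 24 h, and its differences from 0.5 h were likewise not called.

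Of the 183 genes on the higher list, 62 (33.9%) were called higher at 24 h than at 0.5 h by edgeR and 7 (3.83%) lower, against 1.88% and 3.18% of all genes tested. The control cancels in this difference, while the 0.5 h libraries enter both the difference and the choice of the genes. The count was 41 without 24 h replicate 2. From 0.5 h to 1 h none of the 183 was called by edgeR. At an unadjusted edgeR p under 0.05, 49 were lower (26.8%) and 1 higher (0.546%), against 3.71% and 3.25% of all genes tested. The lower list went the other way, with 21 of 33 higher (63.6%), 0 lower and 1 called by edgeR. From 0.5 h to 24 h, 8 of the 33 (24.2%) were called higher by edgeR and 3 (9.09%) lower. Both lists were picked on their values in the 0.5 h libraries, which enter these differences too. Against the controls, which all comparisons share, the median log2 fold change of the 183 was 1.43 at 0.5 h, 0.99 at 1 h and 2.18 at 24 h, and that of the 33 was -4.30, -0.41 and -0.97 as fitted. The -4.30 includes the 10 genes with no count at 0.5 h, whose fitted folds are no bound, and with those at their bound it was the -3.23 given above.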

How the data were processed

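Per the labels' protocols, total RNA came from an RNeasy kit and went into NEBNext Ultra libraries. HISAT2 was used, per the submitters' processing notes; build, annotation, counting tool and strand setting were not given in the sources used here. Raw counts per gene make up the deposited table, and genes with near-identical copies or overlapping neighbours are uncertain. The code in a sample's description links it to its column, which gave 11 libraries; 1 count column matched no label and was not used, and 24 h replicate 3 was not analysed here. Codes in the table and in the labels are numbered differently near the end, so the 24 h libraries called replicates 1 and 2 may be replicates 2 and 3. Nothing says that replicates are separate cultures or plants, so p-values measure only the spread between these samples, possibly a technical one. A batch shared by a group and the cold itself cannot be told apart.

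The main test was edgeR 4.0.16 (R 4.3.3): filterByExpr, TMM factors, 1 quasi-likelihood fit of all 11 libraries with a mean per group, and Benjamini-Hochberg adjustment over 39640 genes. Standard errors are the log2 fold change over the square root of F. DESeq2 1.42.0, whose adjusted p was missing for 166 genes, and limma-voom (limma 3.58.1) were alternatives. Scripts were tested on simulated data. There no tool gave a call of the wrong sign, and the median size, checked for the middle of the simulated folds only, was close to the one put in. The recovery mark set in advance for the largest folds was missed by limma-voom, in thinly counted genes and with no fault found. That mark was then required of edgeR alone. The named identifiers are at most 2 with the largest rise and 2 with the largest fall among edgeR calls, a free place going to the smallest adjusted p in the fit of 6 libraries. Ties there were settled by the unadjusted p. The comparison, the lists and the rules were chosen with earlier results of these data known.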

Additional observations from a re-analysis of the deposited data

Results flagged for a closer look

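PH01221966G0010 drew attention because its fold change differed between times by a test of the difference itself: it was higher at 1 h than at 0.5 h by a log2 difference of 4.70 (edgeR adjusted p = 0.0019, SE 0.35), with all 3 of the 1 h libraries at 95 to 150 counts and all 3 of the 0.5 h libraries at 3 to 5. Between 24 h and 0.5 h the difference was 0.46 (SE 0.44, edgeR adjusted p = 0.71). No group holds 4 libraries, so no library was tested as standing apart from its group.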

How the results depend on the processing

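The edgeR count of 4 was 216 with DESeq2, 1 with limma-voom, 10 with a robust prior, 9 with only the groups compared, 8 with no filter on low counts and 3 to 24 when 1 library was left out; RLE, upper-quartile or library-size scaling, a stricter filter and leaving out the 24 h libraries (an alternative chosen after seeing the data) gave 3 to 5. The count of 278 genes without overlap was 460 with a minimum of 0.5 CPM, 109 with a minimum of 5 CPM and 426 to 515 without 1 library, and the count of 0 genes near silence in 1 group was 3 with the lower thresholds and 1 to 4 without 1 library. DESeq2's 216 became 155 to 252 without 1 library, and 96 to 145 of its 183 higher genes were called higher again and 11 to 20 of its 33 lower genes lower. The 62 genes higher at 24 h than at 0.5 h became 41 to 66 without 1 library; these last alternatives were also chosen after seeing the data. No named gene changed direction in the 17 alternatives run for each. Same-numbered control and 0.5 h libraries deviated from their group means with correlations of -0.11, -0.11 and -0.16 over 18133 genes, and pairs with unlike numbers with 0.02 to 0.09. Deviations from a mean of 3 libraries sum to 0 in each group, so these values are tied to each other. They cannot decide whether equal numbers mark a shared batch. With the replicate number as a block the count was 4, 3 of them the same genes. Depth and 3 libraries a group limit what can be said of genes below 1 CPM.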
